A study of Mus musculus with 6 samples.

Results

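Genes of T cells and natural killer (NK) cells were examined in 6 mouse tumors grown from 4T1, a mammary carcinoma line that originated in the Balb/C strain. The list held 43 gene symbols, gathered by their known role in these cells. Of these, 41 were represented by a probe set naming that gene alone, out of 19937 genes on the arrays, and each of the 41 had exactly 1 such probe set. Tcf7 and Xcr1os were not analysed here. The mice were Balb/C animals that received 750000 4T1 cells in the 4th mammary gland. From day 7 they were given daily oral treatment for 14 days, either with water (3 tumors) or with TKI258 at 40 mg/kg (3 tumors). TKI258, also called dovitinib, is an inhibitor of receptor tyrosine kinases, among them the receptors of FGF, VEGF and PDGF. RNA of whole tumors was hybridized to Affymetrix arrays, 1 array per tumor, so that every tumor carried its own array and no host gland without tumor cells was included. Age and sex of the mice are not given.

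T cells recognize peptides on MHC molecules through the T cell receptor, whose signal is carried into the cell by the CD3 chains and the kinase ZAP70. CD4 and CD8 are coreceptors of helper and cytotoxic T cells, and CD28, ICOS and CD27 give costimulatory signals. Naive T cells, which circulate between blood and lymph nodes, depend on IL-7 and on the transcription factors TCF1 and LEF1. Activated cytotoxic T cells and NK cells kill with perforin and granzymes and secrete interferon gamma, while regulatory T cells, marked by FOXP3, restrain them. Checkpoint receptors such as PD-1 and CTLA-4 lower T cell activity and are often found on T cells within tumors. Such cells can enter tumors, and the host mice here shared the strain of the tumor line.

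The values are log2 signals, on which a difference of 1 is a doubling of signal. The medians of the 6 arrays lay between 6.38 and 6.44, and pairs of arrays correlated at 0.973 to 0.993. Of the 41 T and NK cell genes, 12 lay below the array median in all 6 tumors and 3 lay above it in all 6. Their mean was 6.11, 5.57 and 5.80 in water and 5.54, 5.45 and 7.16 in TKI258 tumors. The tumor cell marker Krt8, a keratin of simple epithelium, lay between 11.55 and 11.88. Two-sided comparisons of TKI258 with water used limma over all 34760 probe sets, with Benjamini-Hochberg adjustment and a threshold of 0.05.

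In each group 1 tumor stood apart in markers of other cell types. The mean of 11 B cell markers was 8.85 in TKI258 replicate 3 and 6.96 in water replicate 1, against 5.10 to 5.22 in the other 4 tumors. Of these markers 11 of 11 were highest in TKI258 replicate 3, and 11 of 11 had water replicate 1 as the highest water tumor. The B cell surface gene Ms4a1 (CD20) stood at 9.67 and 7.31 in these tumors and at 4.15 to 4.29 elsewhere. Glycam1, a ligand of L-selectin made by the high endothelial venules of lymph nodes and by milk-producing epithelium, stood at 12.06 and 10.32, against 4.78 to 6.12. The mean of 8 markers of lymph node stroma and high endothelial venules ranged from 5.69 to 7.22 in water and from 6.18 to 7.95 in TKI258 tumors, with the highest value of each group in the same tumors. No marker of these lists was at 0 on this scale. A signal above 0 does not by itself show that a cell type was present. The mean of 10 adipocyte markers was 7.19, 6.10 and 6.66 in water and 7.24, 7.93 and 8.79 in TKI258 tumors, highest in the same tumors but also above every water tumor in each TKI258 tumor. All 10 had a higher mean with TKI258, 8 with an unadjusted limma p under 0.05 (7.14% of all genes in either direction). After adjustment 0 passed (0% of all probe sets), and the groups did not overlap for 6 (8.66% of all genes). Without TKI258 replicate 3, 10 stayed higher and 6 apart (15.8% of all genes). Macrophage markers did not follow: their mean was 9.43, 10.03 and 9.59 in water and 9.30, 9.47 and 9.42 in TKI258 tumors. Each of the 10 had a lower mean with TKI258, and water replicate 1 was the lowest water tumor for 8. The part of these other cell types in the results on T and NK cell genes was not tested.

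None of the 41 genes differed between TKI258 and water tumors in limma's test, and their direction rested on TKI258 replicate 3. Over all 6 tumors 33 genes had a higher mean with TKI258 and 8 a lower one, with a median difference of 0.22 against 0.02 over all genes. None passed at an adjusted p of 0.05, as was the case for 0% of all probe sets, and none had an unadjusted limma p under 0.05, against 7.14% of all genes in either direction. The smallest unadjusted p was 0.124, for Lef1. In 0 genes did all TKI258 tumors lie above all water tumors (8.66% of all genes), and in 1, Lag3, did all lie below (6.49% of all genes). TKI258 replicate 3 had the highest value of all 6 tumors for 39 of the 41 genes, against 26.3% of all genes, and water replicate 1 was the highest water tumor for 27, against 34.0% of all genes. An exact permutation test of 3 tumors against 3 cannot give a two-sided p below 0.1. In bulk tumor RNA, fewer cells of a type and less RNA per cell cannot be told apart.

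**Figure D1:**
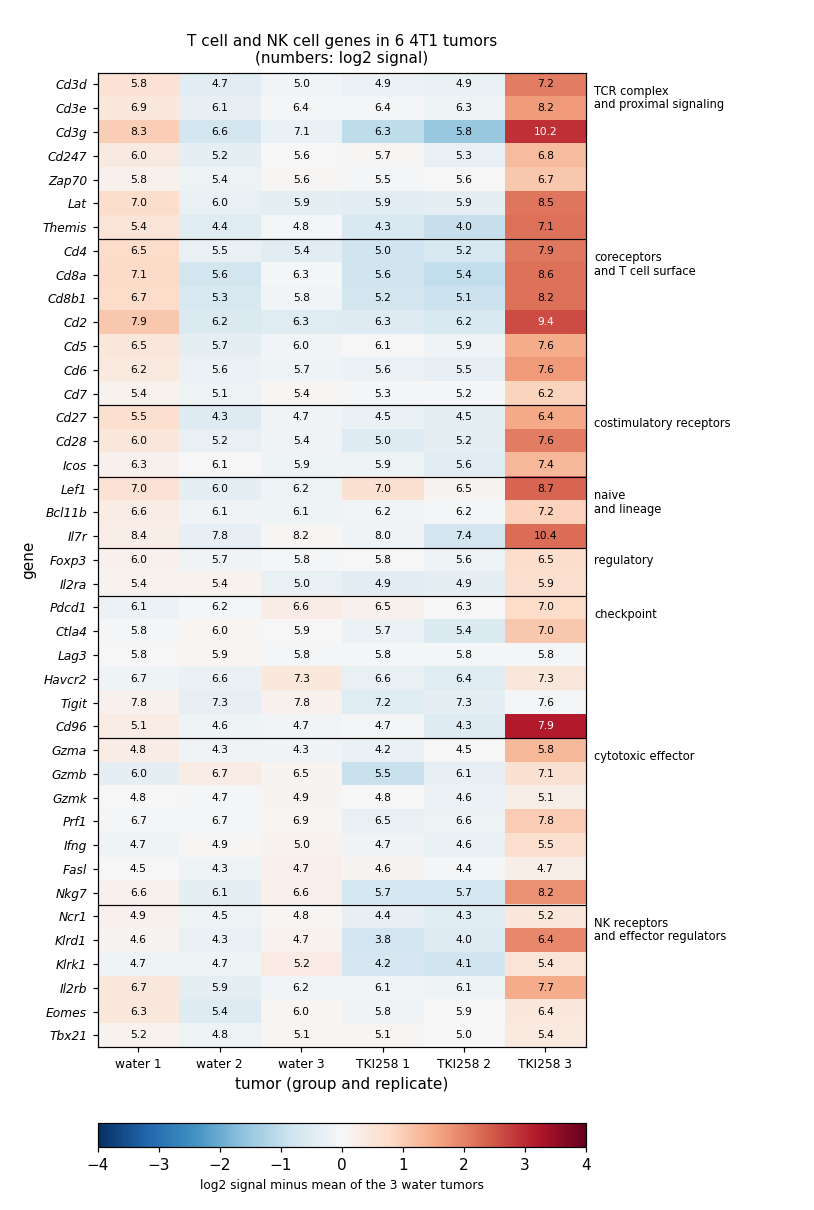
Log2 signal of the 41 genes (rows, grouped by role) in the 6 tumors (columns); numbers in the cells are log2 signals and colour gives the signal minus the mean of the 3 water tumors. The column of TKI258 replicate 3 holds the highest value for 39 of the 41 genes, while TKI258 replicates 1 and 2 lie near or below the water tumors.

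The genes of the T cell receptor complex were high in the same pair of tumors. Cd3e, which encodes the epsilon chain of CD3, had log2 signals of 6.88, 6.14 and 6.38 in water tumors and 6.37, 6.26 and 8.15 in TKI258 tumors. TKI258 replicates 1 and 2 thus lay within the range of the water tumors and only the remaining TKI258 tumor lay above it. The difference was 0.46 ± 0.51 (SE; limma adjusted p = 0.799). Cd3g, the gamma chain, showed the widest spread of the list, with 8.30, 6.60 and 7.05 in water and 6.31, 5.78 and 10.24 in TKI258 tumors. Its level in TKI258 replicate 3 was 18.2-fold above the mean of the other TKI258 tumors, and those lay below all water tumors. Lat, an adaptor that links the receptor to downstream enzymes, had 7.02, 6.02 and 5.91 in water and 5.90, 5.91 and 8.45 in TKI258 tumors. Zap70, the kinase recruited by CD3, had 5.76, 5.38 and 5.63 in water and 5.52, 5.58 and 6.66 in TKI258 tumors. In this role group, with Cd247 (the zeta chain) and Themis (a regulator of T cell maturation) as the other members beside Cd3d, 7 of 7 had a higher mean with TKI258, with differences from 0.13 to 0.51, and 7 of 7 had a lower one without TKI258 replicate 3.

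Cd3g, Cd3d and Cd3e lie next to each other on chromosome 9. Their promoters are shown because these neighbours were high in the same tumors, as were all 7 genes of the receptor complex group. The promoter of Gzmb, the granzyme B gene, is shown because its order across the water tumors was the reverse. Gzmb was nevertheless also highest in TKI258 replicate 3. The sequences are RefSeq's on GRCm38.p6, from 250 bases before to 50 after the transcription start, 5′ to 3′ on the gene's strand. Capitals mark matches on either strand to 3 short motifs. TGTGGT is the core bound by RUNX factors. CTTTGA is the core bound by TCF and LEF factors. AGATAA is bound by factors of the GATA family. No matches overlap in these 4 promoters.
Cd3d, chr9:44981536-44981835, plus strand: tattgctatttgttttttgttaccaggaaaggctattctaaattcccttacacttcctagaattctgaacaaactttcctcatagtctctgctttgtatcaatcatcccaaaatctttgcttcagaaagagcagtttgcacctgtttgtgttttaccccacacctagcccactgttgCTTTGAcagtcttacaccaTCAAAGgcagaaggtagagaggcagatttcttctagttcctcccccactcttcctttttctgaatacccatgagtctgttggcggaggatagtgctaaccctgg
Cd3g, chr9:44980382-44980681, minus strand: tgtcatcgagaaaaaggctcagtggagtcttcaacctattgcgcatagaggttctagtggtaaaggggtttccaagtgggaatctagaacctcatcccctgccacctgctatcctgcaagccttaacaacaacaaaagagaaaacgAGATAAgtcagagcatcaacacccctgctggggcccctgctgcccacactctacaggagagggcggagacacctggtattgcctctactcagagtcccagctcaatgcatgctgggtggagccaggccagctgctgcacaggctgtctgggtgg
Cd3e, chr9:45009562-45009861, minus strand: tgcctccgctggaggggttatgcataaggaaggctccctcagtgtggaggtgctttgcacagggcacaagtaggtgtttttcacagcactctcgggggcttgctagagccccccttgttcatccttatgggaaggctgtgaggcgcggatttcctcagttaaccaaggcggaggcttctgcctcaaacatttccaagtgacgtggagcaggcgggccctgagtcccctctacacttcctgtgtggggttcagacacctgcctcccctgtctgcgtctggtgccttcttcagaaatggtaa
Gzmb, chr14:56262285-56262584, minus strand: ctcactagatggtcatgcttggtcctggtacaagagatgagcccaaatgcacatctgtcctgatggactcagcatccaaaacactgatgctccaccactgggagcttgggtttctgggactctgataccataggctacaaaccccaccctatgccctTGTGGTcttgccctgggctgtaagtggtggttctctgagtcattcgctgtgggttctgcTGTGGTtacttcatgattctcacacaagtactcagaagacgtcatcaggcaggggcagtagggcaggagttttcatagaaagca
The capitals in Cd3d are TCF/LEF matches, 1 on each strand, the one in Cd3g is a GATA match, Cd3e has none, and both in Gzmb are RUNX matches. Of the 43 listed genes, 32 had a promoter in the table, and a gene with several promoters counted once, for a match in any of them. TGTGGT was present in 12 of these (37.5%, against 18.9% of 27025 genes). These were Cd96, Gzma, Gzmb, Havcr2, Il7r, Klrk1, Lat, Ncr1, Nkg7, Prf1, Tigit and Zap70. CTTTGA was present in 9 (28.1% against 18.2%), namely Bcl11b, Cd247, Cd27, Cd3d, Ctla4, Gzmk, Klrk1, Lef1 and Zap70. Klrk1 and Zap70 thus held both. AGATAA was present in 4 (12.5% against 12.7%), namely Cd3g, Foxp3, Lef1 and Tigit. A match describes these letters alone and says nothing about whether a factor was bound.

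The coreceptor genes behaved like the CD3 genes. Cd4 had 6.55, 5.51 and 5.41 in water and 5.03, 5.18 and 7.94 in TKI258 tumors, a difference of 0.23 ± 0.78 (limma adjusted p = 0.944). Cd8a had 7.12, 5.65 and 6.33 in water and 5.56, 5.39 and 8.57 in TKI258 tumors, a difference of 0.14 ± 0.87 (limma adjusted p = 0.970). For both genes the TKI258 group held the highest tumor of all and also the lowest. Cd8b1, the beta chain of CD8 and the neighbour of Cd8a, followed the same order. Cd2, an adhesion receptor, had 7.87, 6.22 and 6.31 in water and 6.29, 6.19 and 9.41 in TKI258 tumors. Cd5, an inhibitory receptor present on all mature T cells, had 6.53, 5.73 and 5.96 in water and 6.08, 5.93 and 7.55 in TKI258 tumors. Water replicate 1 was the highest water tumor for 7 of 7 genes of this group and for 7 of 7 of the receptor complex group. The mean over the role group had an SD of 0.54 among water and 1.37 among TKI258 tumors, so the difference of 0.31 between the means lay well inside the spread.

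Among costimulatory receptors, Cd28 had 5.96, 5.24 and 5.37 in water and 5.002, 5.15 and 7.58 in TKI258 tumors. Icos, which is also abundant on regulatory and follicular helper T cells, had 6.26, 6.13 and 5.92 in water and 5.91, 5.63 and 7.43 in TKI258 tumors. TKI258 replicates 1 and 2 lay below all water tumors for these genes, whereas for Cd27 (5.48, 4.31 and 4.69 in water; 4.55, 4.48 and 6.35 in TKI258 tumors) they did not. The differences were 0.39 ± 0.67, 0.22 ± 0.44 and 0.30 ± 0.55 (limma adjusted p = 0.875, 0.892 and 0.882).

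Genes of naive T cells and of the T lineage had a median difference of 0.45 (-0.07 with TKI258 replicate 3 left out, 1.05 with TKI258 replicate 2 left out) and held the gene with the largest difference of the list. That gene was Lef1, a transcription factor of naive T cells that is also part of WNT signaling in epithelium. Its values were 6.96, 5.98 and 6.18 in water and 6.99, 6.47 and 8.70 in TKI258 tumors, a difference of 1.01 ± 0.58 (limma adjusted p = 0.677), or 0.36 ± 0.32 without TKI258 replicate 3. The groups overlapped through water replicate 1 alone. Il7r, the receptor for the survival cytokine IL-7, had 8.43, 7.83 and 8.21 in water and 8.03, 7.42 and 10.38 in TKI258 tumors (difference 0.45 ± 0.72, limma adjusted p = 0.864). Bcl11b, a factor that fixes T cell identity, had 6.58, 6.12 and 6.11 in water and 6.17, 6.22 and 7.19 in TKI258 tumors. Il7r was above the array median in all 6 tumors, while Bcl11b was above it only in water replicate 1 and TKI258 replicate 3.

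Both regulatory genes were highest in TKI258 replicate 3. Foxp3, the defining factor of regulatory T cells, had 6.02, 5.71 and 5.79 in water and 5.85, 5.64 and 6.53 in TKI258 tumors (difference 0.17 ± 0.23, limma adjusted p = 0.846). Il2ra, the alpha chain of the IL-2 receptor, had 5.44, 5.45 and 5.002 in water and 4.85, 4.94 and 5.94 in TKI258 tumors (difference -0.05 ± 0.30, limma adjusted p = 0.970). The excess of TKI258 replicate 3 over the mean of the other TKI258 tumors was 0.79 for Foxp3 and 1.05 for Il2ra.

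Of 6 checkpoint genes 0 passed limma's test, 3 had a higher and 3 a lower mean with TKI258, and the median difference was 0.01. Without TKI258 replicate 3, which was the highest tumor for 4 of the 6, 5 were lower and the median was -0.34. Of the 6, 4 then lay below all water tumors (10.6% of all genes). Pdcd1, which encodes PD-1, had 6.05, 6.23 and 6.61 in water and 6.48, 6.27 and 7.05 in TKI258 tumors (difference 0.30 ± 0.23, limma adjusted p = 0.729). Here water replicate 1 was the lowest water tumor, the reverse of its place for Cd3e. Ctla4 had 5.84, 5.98 and 5.91 in water and 5.67, 5.36 and 6.99 in TKI258 tumors (difference 0.10 ± 0.39, limma adjusted p = 0.952). Havcr2, which encodes TIM-3 and is also expressed by macrophages and dendritic cells, had 6.70, 6.58 and 7.30 in water and 6.56, 6.39 and 7.31 in TKI258 tumors. Tigit had 7.82, 7.32 and 7.83 in water and 7.19, 7.26 and 7.59 in TKI258 tumors, a difference of -0.31 ± 0.18 (limma adjusted p = 0.677). Tigit was thus lower in TKI258 replicate 3 than in water replicates 1 and 3, unlike 39 of the other genes. Lag3 lay between 5.78 and 5.93 in all tumors, below the array medians, and its separation of the groups rested on a difference of -0.07 ± 0.08 (limma adjusted p = 0.799). Cd96, a receptor of T and NK cells, did the opposite and stood at 7.94 in TKI258 replicate 3 against 4.26 to 5.08 elsewhere, an 11-fold excess over the mean of the other TKI258 tumors. Cd96 is named after its values were seen.

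**Figure D2:**
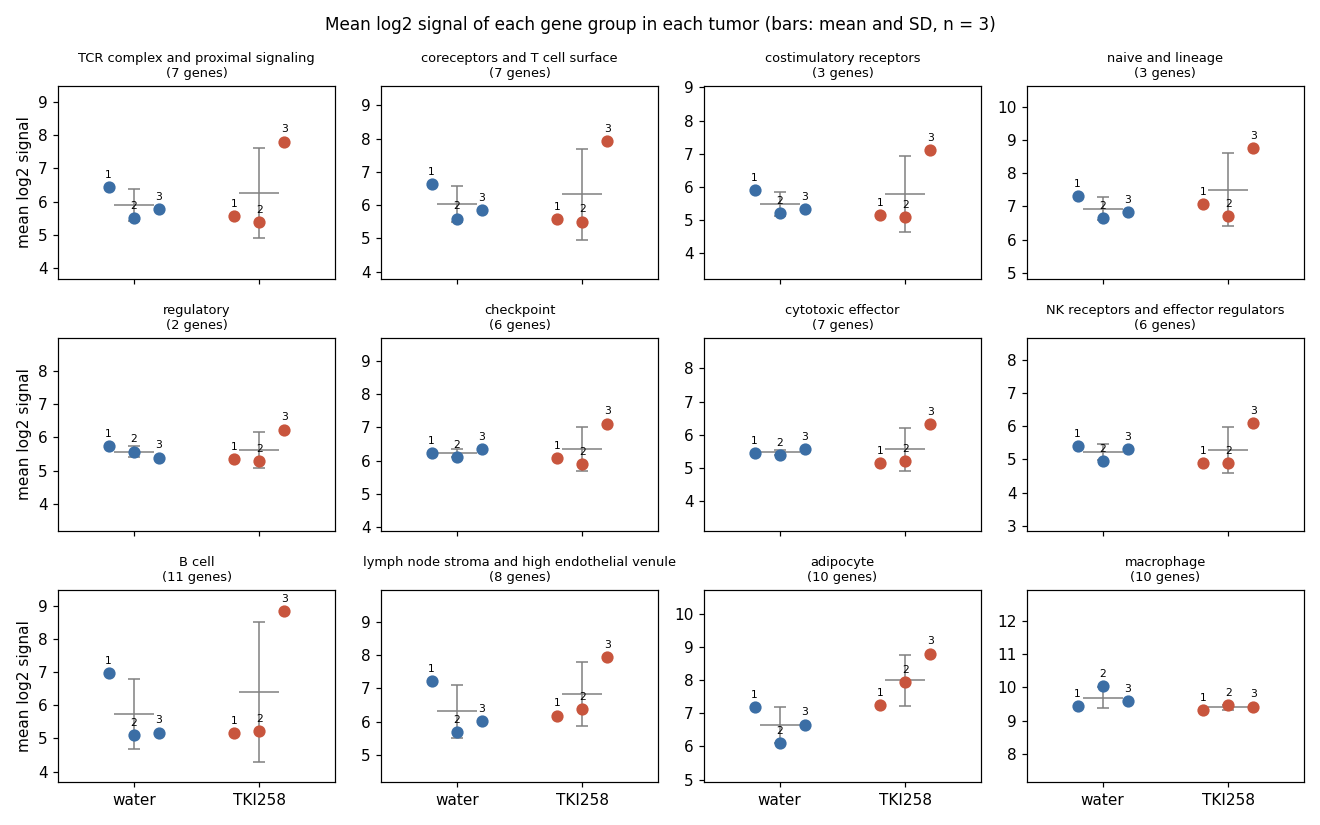
Mean log2 signal of each role group of T and NK cell genes and of 4 marker lists of other cell types; each point is 1 tumor, numbered by replicate, with water in blue, TKI258 in red, and grey bars for the mean and SD (n = 3). All panels span the same number of log2 units; TKI258 replicate 3 is highest in all 8 role groups, and the B cell panel shows the same pair of high tumors as the T cell receptor panel.

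Among 7 cytotoxic effector genes the excess of TKI258 replicate 3 over the mean of the other TKI258 tumors ran from 0.23 for Fasl to 2.52 for Nkg7, a range that overlaps the 1.11 to 4.19 of the receptor complex genes. Prf1, the pore-forming protein perforin, had 6.74, 6.72 and 6.86 in water and 6.48, 6.58 and 7.79 in TKI258 tumors (difference 0.18 ± 0.34, limma adjusted p = 0.887). Gzmb had 6.04, 6.74 and 6.53 in water and 5.54, 6.10 and 7.05 in TKI258 tumors (difference -0.21 ± 0.39, limma adjusted p = 0.886). Water replicate 1, highest of the water tumors for Cd3e, Cd4 and Cd8a, was the lowest for Gzmb. Nkg7, a granule membrane protein of killer cells, had 6.58, 6.07 and 6.61 in water and 5.71, 5.72 and 8.24 in TKI258 tumors (difference 0.13 ± 0.67, limma adjusted p = 0.963). Gzma had 4.78, 4.32 and 4.32 in water and 4.22, 4.46 and 5.80 in TKI258 tumors, and Ifng, interferon gamma, had 4.71, 4.94 and 5.04 in water and 4.75, 4.64 and 5.55 in TKI258 tumors. Gzma, Ifng, Gzmk and Fasl (the ligand of the death receptor FAS) stayed below the array median in every tumor. The range of the role group's mean was 5.40 to 5.57 in water tumors. TKI258 replicates 1 and 2 lay below it at 5.15 and 5.21, and TKI258 replicate 3 above it at 6.31. Of the 7 genes only 2, Prf1 and Nkg7, had TKI258 replicates 1 and 2 below all water tumors (10.6% of all genes).

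Of 6 genes of NK cell receptors and regulators of effector cells, 0 passed limma's test. A higher mean with TKI258 was found for 4 and a lower one for 2. TKI258 replicate 3 was the highest tumor for 6 of the 6 (26.3% of all genes). Ncr1, which encodes the NK receptor NKp46, had 4.91, 4.53 and 4.79 in water and 4.41, 4.26 and 5.17 in TKI258 tumors (difference -0.13 ± 0.25, limma adjusted p = 0.888). Klrk1, which encodes the activating receptor NKG2D, had 4.71, 4.70 and 5.21 in water and 4.19, 4.08 and 5.37 in TKI258 tumors (difference -0.33 ± 0.35, limma adjusted p = 0.799). Both genes were lower in TKI258 replicates 1 and 2 than in any water tumor, at signals below every array median. Il2rb, the beta chain of the receptors for IL-2 and IL-15, had 6.70, 5.91 and 6.15 in water and 6.14, 6.08 and 7.75 in TKI258 tumors. The transcription factor genes Eomes (6.35, 5.42 and 6.01 in water; 5.79, 5.94 and 6.35 in TKI258 tumors) and Tbx21 (5.17, 4.84 and 5.08; 5.08, 5.01 and 5.40) overlapped between groups with or without that tumor.

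The pair of tumors with high B cell markers departed from the rest of their groups to a varying extent across the role groups. In TKI258 replicate 3 the excess over the mean of the other TKI258 tumors was 2.34 for the receptor complex, 2.37 for coreceptors and T cell surface genes, 2.00 for costimulatory receptors and 1.88 for naive and lineage genes. It was 0.92 for regulatory, 1.14 for checkpoint, 1.13 for cytotoxic and 1.19 for NK and effector regulator genes. B cell markers differed by 3.66 in the same contrast and all genes by a median of -0.02. In water replicate 1 the excess over the other water tumors was 0.80, 0.91, 0.62 and 0.58 for the first 4 role groups, 0.24 for regulatory and 0.28 for NK and effector regulator genes, and -0.01 and -0.04 for checkpoint and cytotoxic genes. The means of checkpoint and cytotoxic genes hold members that went both ways in water replicate 1: Cd96 (0.45), Tigit (0.24), Gzma (0.46) and Nkg7 (0.24) were above the other water tumors there, and Gzmb (-0.60) and Pdcd1 (-0.37) below them. These are single tumors, and the differences between role groups were not tested. Signal levels differed between the groups of genes as well, since 4 of 7 cytotoxic genes and 0 of 7 receptor complex genes were below the array median in all tumors; the part of signal level in these contrasts was not tested.

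**Figure D3:**
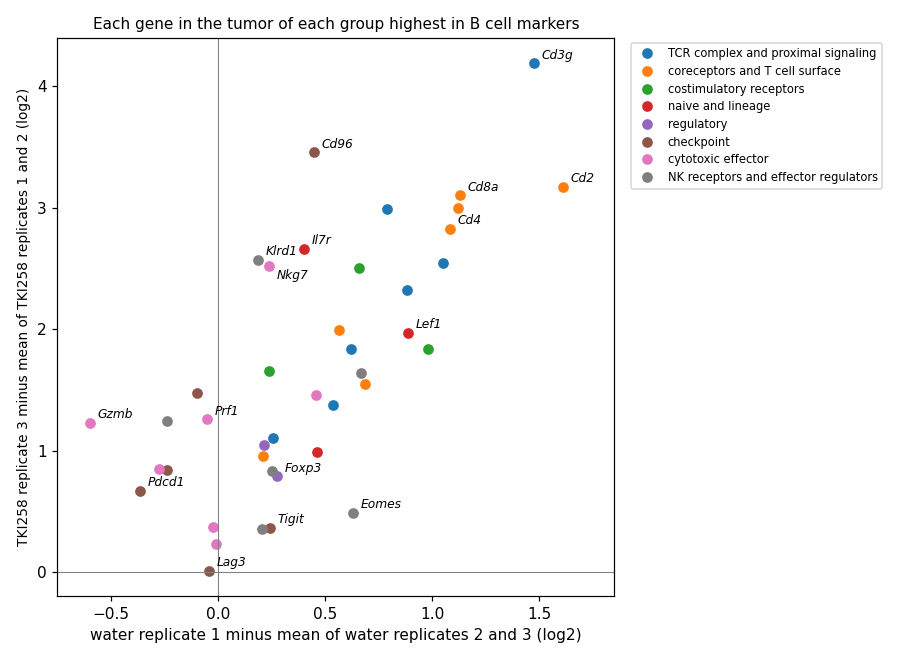
Each point is 1 of the 41 genes, coloured by role group; the horizontal axis is its log2 signal in water replicate 1 minus the mean of the other water tumors, the vertical axis its signal in TKI258 replicate 3 minus the mean of the other TKI258 tumors. Cd3g (1.47 and 4.19) and Cd2 lie at the upper right, Gzmb (-0.60 and 1.23) at the left, and Lag3 (-0.04 and 0.02) near the origin.

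Without TKI258 replicate 3 the direction turned for most members. That tumor was singled out after its values were seen, as the highest of all tumors for 39 of the 41 genes. Leaving it out therefore lowers the TKI258 side of these genes by construction. The shares over all genes given below do not allow for this choice. Of the 41 genes 37 were then lower with TKI258 and 4 (Lef1, Pdcd1, Fasl and Tbx21) higher, with a median difference of -0.30 against 0.03 over all genes. Both remaining TKI258 tumors lay below all 3 water tumors for 19 of the 41 genes, against 10.6% of all genes. Unadjusted limma p was under 0.05 and the difference negative for 8 of 41, against 3.38% of all genes, and none passed after adjustment, as for 0% of all probe sets. The 8 were Klrk1 (-0.74 ± 0.18, limma adjusted p = 0.573), Nkg7 (-0.71 ± 0.18), Ctla4 (-0.39 ± 0.12), Ncr1 (-0.41 ± 0.14), Prf1 (-0.24 ± 0.10), Cd3g (-1.27 ± 0.50) and, named after their values were seen, Klrd1 (-0.64 ± 0.16), which encodes CD94, and Themis (-0.77 ± 0.29). These were 3 of 6 NK and effector regulator genes, 2 of 7 cytotoxic, 2 of 7 receptor complex and 1 of 6 checkpoint genes. The other role groups held 0, and differences between role groups were not tested. Without water replicate 1 as well, which leaves 2 tumors a group, 27 of 41 genes were lower and 21 lay apart on the lower side, against 16.1% of all genes. The median difference was then 0.03 for the receptor complex and 0.08 for naive and lineage genes, and negative for the other role groups: -0.09 for coreceptors, -0.12 for NK and effector regulator, -0.17 for regulatory, -0.23 for costimulatory, -0.25 for checkpoint and -0.26 for cytotoxic genes. Within the receptor complex 3 of 7 genes still lay below all remaining water tumors, among them Cd3g (-0.78) and Themis (-0.51). Over all 6 tumors, neutrophil markers had a mean of 6.44 to 6.99 in TKI258 and 7.11 to 7.54 in water tumors. Of these 10 markers, 2 lay apart on the lower side (6.49% of all genes). Keratinocyte markers stood at 7.30 and 7.03 in water replicates 2 and 3 against 4.96 to 5.40 in all other tumors. The part of these cells was not tested.

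**Figure D4:**
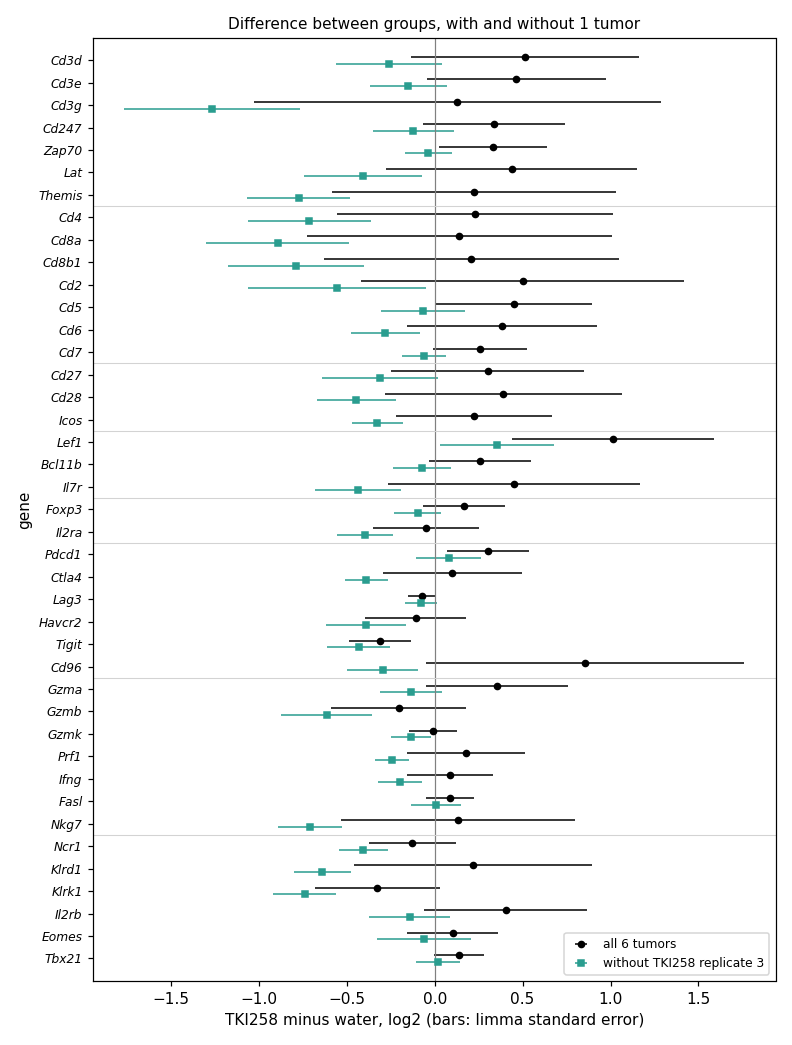
Difference between TKI258 and water tumors (log2, horizontal axis) for each of the 41 genes, with limma standard errors as bars; black circles use all 6 tumors and green squares leave out TKI258 replicate 3. Most circles lie right of 0 (33 genes) and most squares left of it (37 genes), with wider bars for most circles.

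Other genes of T cell receptor signaling and naive T cells were mostly highest in TKI258 replicate 3. Of 19 measured genes of T cell receptor signaling outside the list, 0 passed limma's test and 18 were highest in TKI258 replicate 3; 13 had a higher and 6 a lower TKI258 mean, and 17 were lower without that tumor. Ptpn22, a phosphatase that dampens receptor signaling, had 6.70, 6.70 and 6.75 in water and 5.84, 5.84 and 8.22 in TKI258 tumors, and differed by -0.08 ± 0.62 (limma adjusted p = 0.976) with that tumor and by -0.88 ± 0.08 (limma adjusted p = 0.399) without it. Of 8 genes of naive T cell homing and quiescence, 0 passed and 7 were highest in TKI258 replicate 3. The lymph node homing receptor gene Ccr7 had 7.44, 7.22 and 6.76 in water and 6.85, 6.68 and 8.82 in TKI258 tumors, and the chromatin organizer gene Satb1 had 7.58, 5.71 and 5.92 in water and 5.90, 5.71 and 9.64 in TKI258 tumors. Satb1 thus repeated the order of Cd2, with water replicate 1 well above the other water tumors.

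The granzyme genes near Gzmb were lower in TKI258 replicates 1 and 2. Of 19 other cytotoxic and NK genes, 10 had a higher and 9 a lower mean with TKI258, 0 passed limma's test and 12 were highest in TKI258 replicate 3; water replicate 1 was the highest water tumor for 7 and the lowest for 7. Gzmd had 6.84, 7.53 and 7.15 in water and 5.41, 6.24 and 7.67 in TKI258 tumors (difference -0.74 ± 0.54, limma adjusted p = 0.718). Gzmf had 6.76, 7.60 and 6.93 in water and 5.49, 6.27 and 7.16 in TKI258 tumors (difference -0.79 ± 0.43, limma adjusted p = 0.670). Over Gzmb and Gzmc to Gzmg, a set of 6 grouped after their values were seen, 6 of 6 had a lower mean with TKI258, with means over the set of 6.54, 7.11 and 6.75 in the water group and 5.59, 6.24 and 7.15 in the TKI258 group. Water replicate 1 was the lowest water tumor for 5 of the 6, as it was for 9 of 10 keratinocyte markers and unlike its place for the CD3 genes. These granzyme genes are close copies of one another, and how far their probe sets share signal is not known from the labels.

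Ligands, chemokines and cytokines that act on T and NK cells gave no gene past the threshold. Of 10 measured ligands of costimulatory, checkpoint and NK receptors, 3 had a higher and 7 a lower mean with TKI258, and 5 were highest in TKI258 replicate 3. Cd274, which encodes the PD-1 ligand PD-L1, had 8.23, 8.26 and 9.30 in water and 8.26, 7.91 and 9.49 in TKI258 tumors (difference -0.04 ± 0.47, limma adjusted p = 0.984), so that 1 tumor of each group was high. Pvr, a ligand of TIGIT and CD96, had 9.74, 9.90 and 9.94 in water and 9.71, 9.55 and 9.07 in TKI258 tumors, with no overlap (difference -0.41 ± 0.17, limma adjusted p = 0.618). Of 9 T cell chemokines and receptors 4 were higher and 5 lower. Cxcl9, an interferon-induced chemokine that attracts effector T cells, had 7.41, 8.32 and 10.11 in water and 6.37, 7.01 and 10.36 in TKI258 tumors. The high tumors for Cxcl9 and Cd274 were water replicate 3 and TKI258 replicate 3, so the water tumor that led the interferon-linked genes was not the one that led Cd3e. Of 10 cytokines and receptor partners 7 were higher and 3 lower, and 6 were highest in TKI258 replicate 3. Il7, the ligand of the IL-7 receptor, had 5.52, 5.54 and 5.48 in water and 5.90, 5.69 and 6.19 in TKI258 tumors, with no overlap, at a signal below the array medians (difference 0.41 ± 0.13, limma adjusted p = 0.574).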

How the data were processed

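Each of 6 tumors was hybridized to 1 array. The authors deposited 1 log2 value per probe set and array, normalized with RMA; affy and limma are also named, all without versions, per the submitters' processing notes, and the build behind the annotation is not stated there. All 34760 probe sets and all 6 columns were used. The platform annotation lists 1 gene for 21640 probe sets, several for 1321 and none for 11799, and only the first kind was given a gene. Where a gene had several, the one brightest on average was kept.

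TKI258 and water tumors were compared with limma 3.58.1 (R 4.3.3; lmFit and eBayes, group as the only term), two-sided, with Benjamini-Hochberg adjustment over all probe sets. The fit was tested on simulated arrays with independent noise for each probe set and known shifts added. No simulated tumor stood apart across many genes, so that test does not cover this feature of the data. Differences are TKI258 minus water with limma's moderated standard errors, and means are given with the SD over 3 tumors. The labels call the tumors biological replicates and give no scan batch. The small number of arrays limits the precision.

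The members and lists were chosen with earlier results of these data known. Genes named with all values were 14 chosen symbols (13 measured), up to 3 members of each role group with the highest mean, and the 3 with the smallest p in each direction, 31 in all. Cd3d, Themis, Cd96, Klrd1 and the genes outside the list that are given with values were chosen after their values were seen. Dendritic and epithelial markers (8 and 9 genes) were measured too: their means ranged from 5.80 to 6.39 and from 8.03 to 8.90 over the 6 tumors. Alternatives covered normalization, filters, the variance prior, array weights, a replicate block, probe set choice, arrays left out and a B cell covariate.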

Additional observations from a re-analysis of the deposited data

How the results depend on the processing

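None of the 41 genes passed limma's test under any of the 18 alternatives, and adjusted p ranged from 0.275 to 1.00 over 44 named genes and all alternatives. Same-numbered tumors of both groups deviated from their group means with correlations of -0.23, 0.19 and 0.0090. The labels do not say whether the numbers pair tumors, and correlations over so few tumors cannot settle it. A replicate block left 33 genes higher, a median difference of 0.22 and 0 passing, and changed no call. Quantile normalization, median centring, the trend and robust prior, the fit on probe sets with 1 gene and the mean of probe sets kept the direction of all 44. Leaving out 1 array at a time gave 4 to 37 of 41 genes with a higher TKI258 mean (53.9% to 58.1% of all genes), 0 to 8 with unadjusted p under 0.05 (4.80% to 6.95%), 1 to 19 apart on the lower side (9.59% to 11.3%) and 0 to 2 on the higher side (12.1% to 16.6%). The median difference over the list ranged from -0.30 (without TKI258 replicate 3) to 0.55 (without TKI258 replicate 2). Array weights left 11 genes higher (56.6% of all genes) and 1 with unadjusted p under 0.05 (8.38%), and the B cell covariate 17 (57.1%) and 2 (7.23%). Removing both arrays high in B cell markers left 14 higher (59.0%) and 9 with unadjusted p under 0.05 (7.03%), with 2 apart on the higher side (24.8%) and 21 on the lower (16.1%). The filter on low signal kept 13 members, 11 of them higher (40.5% of all genes kept), and the filter on variance kept 40; Lag3 was in neither, which left 0 genes apart on the lower side. A second threshold of 0.1 also called 0 members. With the signal filter no value could be had for costimulatory or regulatory genes. With array weights the difference turned for 22 genes: Cd3g -0.84, Lat -0.15, Cd4 -0.43, Cd8a -0.64, Cd2 -0.27, Cd27 -0.19, Cd28 -0.20, Icos -0.076, Il7r -0.10, Foxp3 -0.0039, Ctla4 -0.15, Gzma -0.00089, Prf1 -0.099, Ifng -0.066, Nkg7 -0.46, Il2rb -0.0049, Eomes -0.13, Cd3d -0.061, Themis -0.47, Klrd1 -0.39, Ccr7 -0.064, Satb1 -0.24. With both arrays high in B cell markers removed it turned for 19: Cd3g -0.78, Lat -0.059, Cd4 -0.35, Cd8a -0.52, Cd2 -0.020, Cd28 -0.23, Icos -0.25, Il7r -0.30, Foxp3 -0.0056, Pdcd1 -0.043, Ctla4 -0.42, Prf1 -0.26, Ifng -0.29, Nkg7 -0.63, Themis -0.51, Cd96 -0.15, Klrd1 -0.58, Ccr7 -0.22, Satb1 -0.011. With the B cell covariate it turned for 17: Cd3g -0.58, Lat -0.0042, Cd4 -0.26, Cd8a -0.39, Cd2 -0.074, Cd27 -0.035, Cd28 -0.020, Icos -0.031, Ctla4 -0.10, Prf1 -0.0017, Ifng -0.018, Nkg7 -0.25, Eomes -0.016, Themis -0.27, Klrd1 -0.17, Ccr7 -0.014, Satb1 -0.0012. Leaving out 1 array at a time turned the direction of these genes at least once, with ranges of -0.15 to 0.80 (Cd3e), -1.27 to 0.96 (Cd3g), -0.037 to 0.53 (Zap70), -0.41 to 0.87 (Lat), -0.71 to 0.74 (Cd4), -0.89 to 0.70 (Cd8a), -0.56 to 1.05 (Cd2), -0.067 to 0.74 (Cd5), -0.31 to 0.63 (Cd27), -0.45 to 0.84 (Cd28), -0.33 to 0.57 (Icos), -0.074 to 0.44 (Bcl11b), -0.43 to 1.05 (Il7r), -0.097 to 0.35 (Foxp3), -0.40 to 0.15 (Il2ra), -0.39 to 0.42 (Ctla4), -0.39 to 0.11 (Havcr2), -0.13 to 0.66 (Gzma), -0.62 to 0.14 (Gzmb), -0.24 to 0.41 (Prf1), -0.20 to 0.25 (Ifng), -0.71 to 0.56 (Nkg7), -0.41 to 0.050 (Ncr1), -0.14 to 0.69 (Il2rb), -0.15 to 0.31 (Eomes), -0.26 to 0.92 (Cd3d), -0.77 to 0.80 (Themis), -0.30 to 1.54 (Cd96), -0.64 to 0.70 (Klrd1), -1.92 to 0.069 (Cxcl9), -0.88 to 0.32 (Ptpn22), -0.37 to 0.70 (Ccr7), -0.60 to 1.37 (Satb1), -0.51 to 0.31 (Cd274). The direction turned for 27 of the 44 genes without TKI258 replicate 3 and for 2 to 6 without another array. The cause of these turns was not tested.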
